A study of Rhagoletis pomonella with 50 samples.

Results

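The subject is a set of 100 features whose RNA was higher in the central nervous system (CNS) of hawthorn pupae than of apple pupae of the fly Rhagoletis pomonella at each of 5 monthly samplings in the cold. They were taken from 29399 features listed in every file. They were chosen by measured values, their CPM in the hosts being compared. CPM are the expected counts of a library scaled to a total of 1e+06, and d was the log2 ratio of the hawthorn mean to the apple mean, with 0.5 CPM added to both. Of 9579 features with a mean CPM of at least 2, 332 had d above 0 at 2, 3, 4, 5 and 6 months. The 100 with the largest minimum d over the months are the members. The host difference of the members is therefore given below as a description and carries no test.

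Rhagoletis pomonella, the apple maggot fly, infested hawthorn before it shifted to apple, and the flies of the native and the derived host are a textbook case of host races. Flies of either host overwinter as diapausing pupae. Diapause is a programmed arrest of development with low metabolism that cold exposure brings to an end. Apple fruit ripen earlier than hawthorn fruit, and the host races differ in the seasonal timing of diapause. The pupal CNS is a site where hormonal and neural signals that hold or release diapause are produced.

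Infested apple and hawthorn fruit came from Urbana, Illinois, in 2014. Larvae that left the fruit were kept for 10 days at about 24 °C with 14 h of light and 10 h of dark, and the pupae were then moved to 3.5 °C and 95% relative humidity. There were 10 groups of host and month with 5 libraries each (50 in all), and for every library 10 CNS were pooled. The labels do not say whether pools of a group came from separate collections, so p-values measure the spread between these pools. Sex is not given in the labels. Host, fruit and population changed together, so their parts in a host difference cannot be told apart. In whole CNS, fewer cells of a type and less RNA per cell cannot be told apart either.

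The median library held 14615585 expected counts, the smallest 8718271 and the largest 30540959. Hawthorn replicates 2 and 4 of 4 months stood apart. Their scaling factors by the trimmed mean of M values (TMM) were 0.651 and 0.732, against 0.877 to 1.23 in the other 48 libraries. Their length slopes, a measure of the tilt of a library toward long or short transcripts, were -0.385 and -0.379, against -0.193 to 0.184 in the others. The rule did not use them, and the results below come from the other 48 libraries unless the 50 are named. The files name features by number only and 0 of these identifiers occur in the R. pomonella gene table used as reference, so no gene name, function, position or sequence can be given, and the tissue label could not be checked against marker genes.

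The minimum d of the members ran from 0.118 to 0.515, with a median of 0.16, and the largest d of a member over the months ran from 0.23 to 2.02, with a median of 0.69. The differences were thus small for most members. The first was gene28641, with d of 1.41, 0.71, 0.51, 0.64 and 0.72 at 2 to 6 months, and the second was gene13718, with 0.50, 0.51, 0.53, 0.87 and 0.76. At the edge of the set, gene4012 (minimum d 0.1181) and gene4121 (0.1175) were just inside, while gene217 (0.1167) and gene7239 (0.1137) were just outside. With scaling by file totals, the largest difference of a member fell at 5 months in 59 of the 100 and at 2 months in 20. The smallest fell at 3 months in 36 and at 4 months in 29. The order of the months was another with TMM scaling, as given below.

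The median d of the members was 0.37, 0.26, 0.27, 0.61 and 0.36 at 2 to 6 months, while the median over all 9579 features was -0.28, -0.10, -0.13, 0.07 and -0.20. With scaling by file totals most features were thus lower in hawthorn at 4 of the 5 months, and 2025 features were below 0 at all 5 months against the 332 above. With TMM scaling the medians over all features were -0.01, -0.00449, -0.02, -0.02 and -0.00118. On that scale the medians of the members were 0.63, 0.35, 0.37, 0.52 and 0.55, highest at 2 months and not at 5 months. All 100 members were above 0 at each month, which the rule had largely settled. TMM scaling lowered the median over all features only at 5 months (0.07 to -0.02). There the smallest d of a member with file totals was 0.148.

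**Figure D1:**
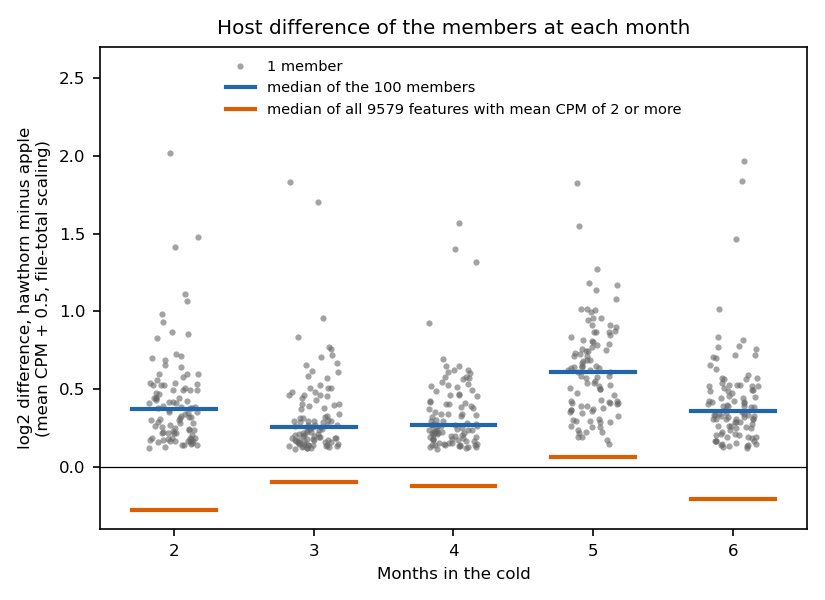
Log2 difference between hosts (hawthorn minus apple, from mean CPM + 0.5 with file-total scaling) of each of the 100 members at 2 to 6 months in the cold. Grey points are members, blue bars their median and orange bars the median of all 9579 features with a mean CPM of at least 2. The members lie above 0 at each month because the rule required it. With this scaling their median was highest at 5 months (0.61), and with TMM scaling at 2 months (0.63).

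The mean over the members of log2(TMM-scaled CPM + 0.5) placed the groups as follows. In apple it was 2.81 ± 0.12 (SD, n = 5) at 2 months, 3.15 ± 0.12 at 3, 3.15 ± 0.16 at 4, 3.26 ± 0.15 at 5 and 3.17 ± 0.23 at 6. In hawthorn it was 3.46 ± 0.15 at 2 months, 3.58 ± 0.08 at 3, 3.60 ± 0.05 at 4 (n = 3), 3.83 ± 0.12 at 5 and 3.78 ± 0.17 at 6 (n = 5 elsewhere). The hawthorn mean at 2 months was thus above the apple mean of every month, though single libraries overlapped (3.23 to 3.61 in hawthorn at 2 months and up to 3.52 in apple at 5 months). The lowest group was apple at 2 months.

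**Figure D2:**
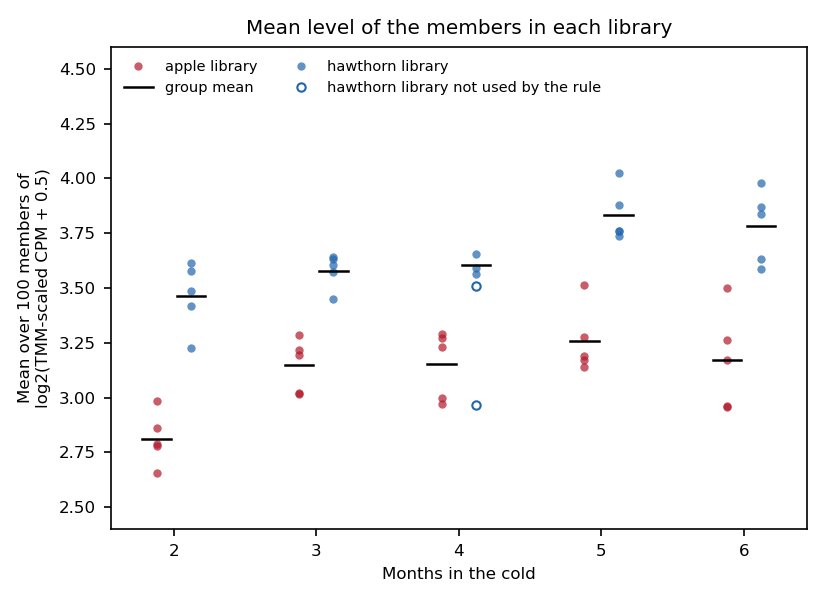
Mean over the 100 members of log2(TMM-scaled CPM + 0.5) in each library, by month in the cold. Red points are apple libraries, blue points hawthorn libraries, black bars group means, and open circles the hawthorn libraries of 4 months that the rule did not use. The apple mean was 2.81 at 2 months and 3.17 at 6 months, and the hawthorn mean 3.46 and 3.78.

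The question that could be tested was whether the members also changed during diapause, since the rule compared hosts within months and not months with each other. Its minimum mean CPM of 2 was taken over all 48 libraries, however, so a scarce feature could pass through its high months. The 9579 features passed the same minimum. Most members rose with time in the cold. Averaged over hosts, 56 of the 100 were higher at 6 than at 2 months and 7 were lower (adjusted p under 0.05, edgeR's quasi-likelihood test with Benjamini-Hochberg adjustment over 14342 features). Of all features tested, 19.8% were called higher and 18.9% lower, and of the 9579 features with a mean CPM of at least 2, 21.3% and 24.2%. The median log2 fold change was 0.46 over the members, with quartiles of -0.08 and 0.87, and -0.06 over the 9579 features. The 56 rises ran from 0.34 to 2.22 with a median of 0.82, and 19 were at least 2-fold. All 56 had a positive fold change in apple and in hawthorn taken alone, which a call on the mean of hosts makes likely. Shares over all features called higher are not given for these 2 counts, so both are descriptions only.

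Other features of the same kind also rose more often than they fell. Of the 232 other features with d above 0 at every month, 120 (51.7%) rose and 22 (9.48%) fell. Where the hosts were exchanged in the rule, so that the 100 features with the largest minimum difference in favour of apple were taken, 11 rose and 30 fell, with a median log2 fold change of -0.21. These lists share libraries with the members, and the difference between lists was not tested.

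**Figure D3:**
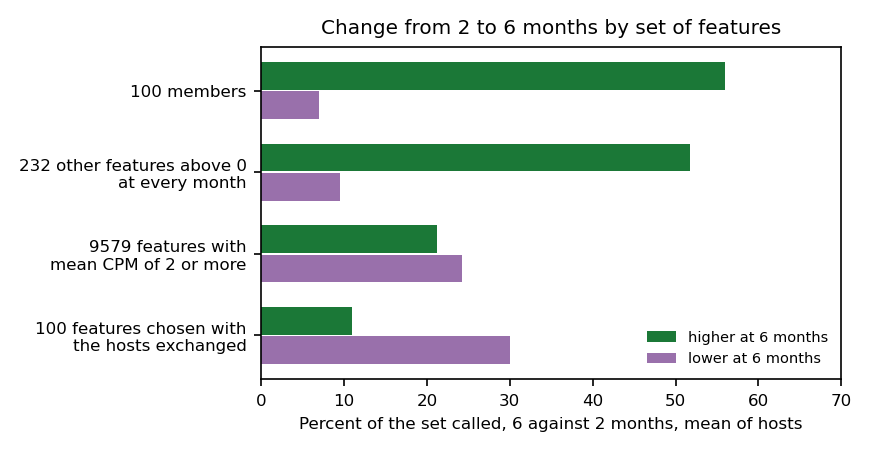
Percent of the features in each set called higher (green) or lower (purple) at 6 than at 2 months, mean of hosts, at an adjusted p under 0.05 by edgeR. Among the members 56% were higher and 7% lower, against 21.3% and 24.2% of the 9579 features with a mean CPM of at least 2.

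The number that rose was 51 with all 50 libraries, 49 with sequencing lane as a term, 48 with the length slope as a term and 58 by DESeq2, against backgrounds of 18.2%, 14.5%, 17.8% and 21.0%. The number that fell moved more, to 3 with all 50 libraries, 1 with the lane term and 3 without the 6 libraries that carry a single index, against backgrounds of 15.9%, 11.8% and 13.5%. Any change over the 5 months, averaged over hosts, was called for 61 of the 100 members and for 41.4% of all features tested.

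Within hosts, 45 members were called higher and 3 lower at 6 than at 2 months in apple, where the background was 11.8% and 8.59%. In hawthorn 34 were higher and 5 lower, with a background of 13.9% and 12.1%. These tests use the host groups of the rule one at a time and are given beside the mean of hosts. With the lane term the apple count was 18 (background 3.1%) and the hawthorn count 37 (12.4%). No lane held apple libraries of both 2 and 6 months. Hawthorn libraries of these months shared lane 7 (2 of 2 months, 3 of 6 months), and there 15 members were called higher (background 3.28%) and 0 lower (2.71%), with 4 lower at an unadjusted p under 0.05 (10.5%). In that lane the hawthorn libraries of 2 months carried a dual index and those of 6 months a single index. Month and index type cannot be told apart there. The hawthorn count without the single-index libraries was 22 (8.42%).

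The course over the months is given for each host as a description, since the rule constrained the host difference at each month. Relative to 2 months, the median member stood at 0.43, 0.44, 0.58 and 0.54 (log2) at 3, 4, 5 and 6 months in apple, and at 0.13, 0.16, 0.42 and 0.38 in hawthorn. Over the 9579 features these medians lay between -0.07 and 0.01. Averaged over hosts, 65 members had their lowest level at 2 months (26.7% of the 9579 features), and 41 had their highest at 6 months (23.4%). No member (0) was called for a host-by-month interaction by edgeR, against 3.36% of all features. At an unadjusted p under 0.05 there were 4 members, against 19.1% of all features, and DESeq2 called 2, against 11.8%. The rule kept the difference above 0 at every month, so nothing is read from that count.

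The largest rise was that of gene23990 (982 bp). Over both hosts its mean was 0.773 CPM at 2 months and 3.91 CPM at 6 months. It thus passed the minimum mean CPM of 2 through its later months. In apple its CPM were 0.416, 1.10, 0.878, 0.403 and 0.651 at 2 months and 4.92, 2.95, 2.65, 2.83 and 2.29 at 6 months. In hawthorn they were 0.508, 1.17, 0.553, 0.690 and 1.36 at 2 months and 4.81, 5.71, 5.08, 4.97 and 2.94 at 6 months. All libraries of 6 months lay above all of 2 months in both hosts. The log2 fold change was 2.22 (SE 0.24, adjusted p = 2.24e-10), 2.09 in apple and 2.35 in hawthorn. Its expected count was not whole in 91.7% of the libraries. RSEM, the authors' counting tool, divides reads that match several features among them, so the level of this feature is uncertain.

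The second, gene24953 (1167 bp), had whole counts in all 48 libraries. It too passed the minimum mean CPM of 2 through its later months, with 0.993 CPM over both hosts at 2 months and 3.88 at 6. Its CPM at 2 months were 0.653, 0.589, 1.17, 0.458 and 0.831 in apple and 0.536, 1.31, 1.99, 1.04 and 1.36 in hawthorn. At 6 months they were 4.52, 3.46, 2.48, 2.99 and 2.26 in apple and 5.43, 3.20, 5.99, 5.18 and 3.30 in hawthorn. The groups of the 2 months did not overlap in either host, and the log2 fold change was 1.94 (SE 0.21, adjusted p = 5.71e-10). In between, the group means climbed through 1.30, 2.11 and 2.26 CPM at 3, 4 and 5 months in apple and 1.98, 2.37 and 4.02 CPM in hawthorn.

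Falls were smaller and fewer, from -0.98 to -0.41 in the 7 features. The largest was that of gene17606, which also had the largest d of any member, 2.02 at 2 months. There its hawthorn libraries held 8.62, 5.26, 6.37, 7.47 and 12.6 CPM and its apple libraries 1.64, 2.11, 1.22, 1.30 and 1.82. At 6 months the values were 3.78, 1.05, 6.17, 1.70 and 1.67 CPM in hawthorn and 0.123, 2.50, 0.464, 0.870 and 1.90 CPM in apple, and the hosts overlapped. Its log2 fold change averaged over hosts was -0.98 (SE 0.39, adjusted p = 0.0432), -1.58 in hawthorn (adjusted p = 0.0237) and -0.37 in apple (0.702). This call was lost in 22 of 57 alternative fits (adjusted p up to 0.202), and its counts were not whole in 100% of the libraries.

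The next, gene24639 (1828 bp), fell in both hosts. Apple libraries went from 3.01, 2.72, 4.39, 3.09 and 3.86 CPM at 2 months to 2.03, 1.73, 1.77, 2.64 and 1.504 at 6 months. Hawthorn libraries went from 4.34, 4.38, 3.76, 7.11 and 3.56 CPM to 4.09, 2.98, 2.41, 2.59 and 1.69. The apple groups did not overlap, and the highest hawthorn library of 6 months lay within the range of 2 months. The log2 fold change was -0.84 (SE 0.20, adjusted p = 0.000537), -0.82 in apple and -0.87 in hawthorn. With the lane term it was -0.49 and not called (adjusted p = 0.123). At the edge of the set, gene4012 (451 bp) fell by 0.61 (SE 0.12, adjusted p = 9.63e-05, but -0.38 and 0.0646 with the lane term and -0.35 and 0.0831 without the single-index libraries). Also at the edge, gene4121 (7963 bp) rose by 0.59 (SE 0.12, adjusted p = 7.33e-05).

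**Figure D4:**
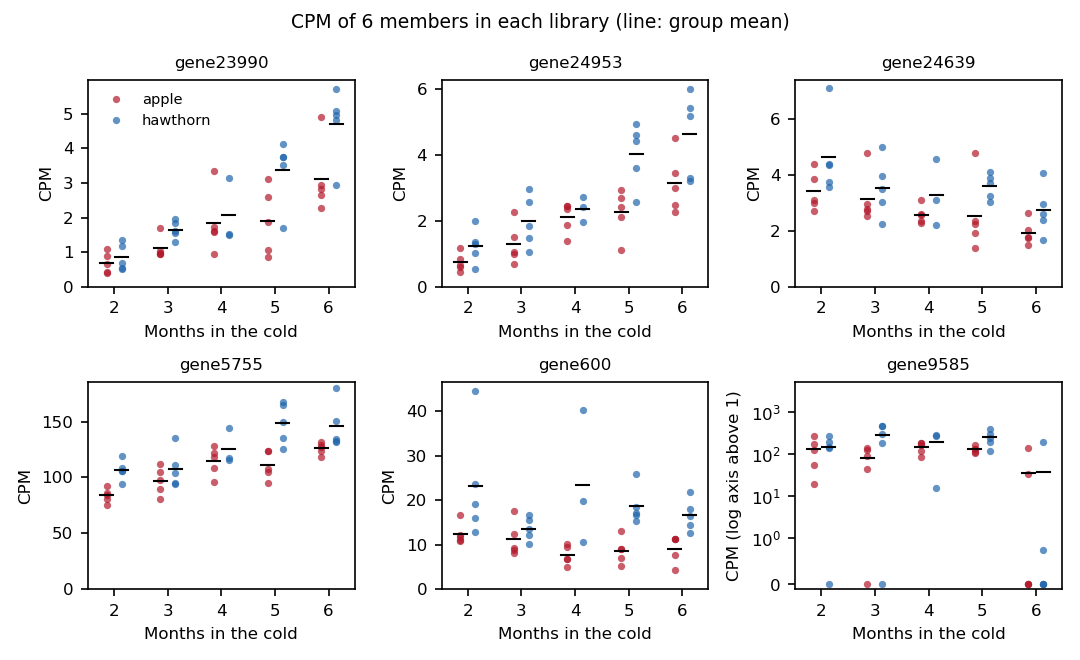
CPM (file-total scaling) of 6 members in each library by month in the cold, with apple in red, hawthorn in blue and black bars for group means. The axis of gene9585 is logarithmic above 1 CPM. Both gene23990 and gene24953 climbed in both hosts, gene24639 fell, and gene9585 lay at 0 in 9 of the 48 libraries.

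Rises were most frequent among long transcripts. The members were divided into 3 classes of nearly equal number by length. Among the 33 members over 2347 bp, 25 rose, with a median log2 fold change of 0.89. Of the 34 from 1248 to 2347 bp, 20 rose and 4 fell (median 0.44), and of the 33 shorter ones 11 rose and 3 fell (median -0.03). The 7 that fell were thus all in the shorter classes. Of all features with a mean CPM of at least 2, 20.7%, 24.7% and 27.9% fell from the longest to the shortest class. Falls were thus less frequent among the members in each class. The order of the rises was the same over all these features, of which 31.9%, 19.0% and 10.6% rose from the longest to the shortest class, with medians of 0.06, -0.07 and -0.18. The length slope of the libraries was also higher at 6 months, with means of -0.0356 ± 0.0747 at 2 months and 0.0295 ± 0.0524 at 6 months in apple, and of -0.0842 ± 0.0509 and 0.0673 ± 0.09998 in hawthorn (SD, n = 5). With the slope as a term in the fit 48 members rose and 5 fell, against 17.8% and 15.5% of all features tested.

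**Figure D5:**
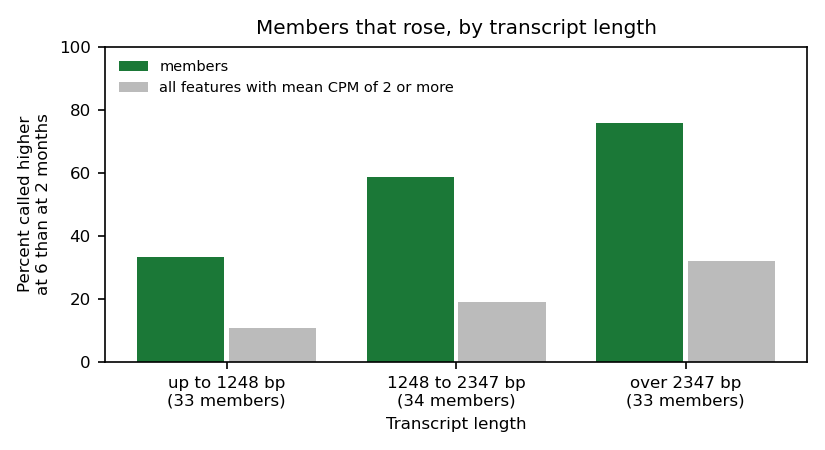
Percent of features called higher at 6 than at 2 months (mean of hosts) in 3 classes of transcript length, for the members (green) and for all features with a mean CPM of at least 2 (grey). Rises were called for 11 of 33, 20 of 34 and 25 of 33 members from the shortest to the longest class, each a larger share than the background of 10.6%, 19.0% and 31.9%.

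Several properties set the members beside other features with a mean CPM of at least 2. Length and number of isoforms did not enter the rule, while spread and level come from the same counts that it used. The median length of the members was 1485 bp (quartiles 978 and 2624), against 1843 bp. More than 1 isoform was listed for 17% of the members against 32.7%. Their spread between pools of a group was wider, with a median SD of 0.34 on the log2(CPM + 0.5) scale against 0.28, and a median biological coefficient of variation of 0.234 against 0.190. Their median level per length was 5.36 TPM (the authors' length-corrected unit, scaled to a fixed library total) against 8.64 TPM. The part of level and spread in the choice of the members was not tested.

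For 54 of the 100 members, expected counts were not whole in most libraries, against 29.3% of the 9579 features. For these 54 members the level depends on how reads were shared out among similar features. Of the 46 members with mostly whole counts, 30 rose and 3 fell from 2 to 6 months, against a background of 21.7% and 25.8% of features with mostly whole counts. Of the 54, 26 rose and 4 fell, against 20.1% and 20.3%. The median log2 fold change was 0.56 among members with mostly whole counts and 0.36 among the others.

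At the top of the range of levels stood gene16224 (890 bp), with a mean of 7299.9 TPM, whole counts throughout and the second smallest spread between pools of any member (SD 0.16, log2). Its apple libraries held 4247 to 6335 CPM with a median of 5041, and its hawthorn libraries 4848 to 7316 CPM with a median of 6008. At 2 months the hosts did not overlap, with 5741 CPM in the lowest hawthorn and 5164 CPM in the highest apple library. The hawthorn libraries left out of the rule held 10742 and 11380 CPM. Its change from 2 to 6 months was not called (log2 fold change -0.17, adjusted p = 0.158). The next in level, gene27440 (284 bp, 583 TPM), held 63.5 to 130.4 CPM in apple and 81.6 to 205 CPM in hawthorn, and was not called over time either (-0.28, adjusted p = 0.102; -0.52 and called without the single-index libraries, adjusted p = 0.0336). The steadiest member, gene16056 (SD 0.16), held 204 to 294 CPM in apple and 209 to 364 CPM in hawthorn, with a log2 fold change over time of 0.02 (adjusted p = 0.890).

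All hawthorn libraries lay above all apple libraries at 2, 3, 4, 5 and 6 months in 8, 5, 9, 33 and 5 members. The background in this direction was 0.898%, 0.512%, 0.585%, 6.79% and 0.324% of features. Features with all apple libraries above were not counted, and at 4 months hawthorn had 3 libraries. The rule used the same CPM values. For 52 members the hosts overlapped at every month, for 38 they were apart at 1 month, for 8 at 2 months and for 2 at 3 months. Those 2 were gene600 and gene5755. For gene600 (750 bp) apple libraries held 4.96 to 10.2 CPM at 4 months, 5.10 to 13.0 at 5 and 4.38 to 11.3 at 6, and hawthorn libraries 10.5 to 40.2, 15.3 to 25.8 and 12.7 to 21.9. Its counts were not whole in 100% of the libraries. For gene5755 (1968 bp) apple libraries held 75.3 to 92.6 CPM at 2 months and hawthorn libraries 94.0 to 119. The hosts were only narrowly apart at the other months. The highest apple library held 124.1 CPM at 5 months and 131.79 at 6, and the lowest hawthorn library 125.3 and 131.87. From 2 to 6 months gene5755 rose by 0.47 (SE 0.08, adjusted p = 3.00e-06), 0.58 in apple and 0.35 in hawthorn.

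Some members varied widely between pools of a group. In gene9585 (434 bp, SD 2.86) the levels jumped between 0 and 464 CPM. It was at 0 in all 6 single-index libraries, which are 3 apple and 3 hawthorn pools of 6 months, and in 3 of the 42 dual-index ones. A count of 0 allows up to 0.139 to 0.332 CPM at the depth of these libraries (3 counts, counting error only). Its change from 2 to 6 months was not called (-2.01, SE 0.98, adjusted p = 0.103), but it was without hawthorn replicate 2 of 6 months (-5.87, adjusted p = 0.000269) or apple replicate 1 of 6 months (-2.92, adjusted p = 0.0257). In the other 55 alternative fits it was not called, with log2 fold changes as small as -0.69 and adjusted p up to 0.655. In gene3692 (536 bp, SD 1.52) the libraries held 0 to 10.97 CPM in apple and 0 to 18.7 CPM in hawthorn, and no change over time was called (-0.64, adjusted p = 0.495). The first member, gene28641, had counts that were not whole in 100% of the libraries, an SD of 0.96 and libraries from 5.21 to 66.2 CPM in apple and from 11.3 to 80.2 CPM in hawthorn. The second member, gene13718 (483 bp), had counts that were not whole in 97.9% of the libraries, an SD of 1.02 and 1 apple library at 0. Its apple libraries of 5 months held 10.7, 2.80, 16.0, 9.73 and 0.214 CPM.

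Only gene2740 and gene2741 among the members carried consecutive identifiers. They were picked with their values already known, and what the numbering follows is not stated. Both had whole counts. In gene2740 (1621 bp) the apple libraries of 5 months held 18.7, 22.3, 9.21, 11.9 and 9.72 CPM and the hawthorn libraries 24.2, 28.3, 31.1, 42.1 and 40.8. In gene2741 (685 bp) they held 7.95, 9.87, 4.24, 4.72 and 5.05 CPM in apple and 11.2, 13.9, 13.4, 18.5 and 15.9 in hawthorn. The hosts did not overlap in either feature at this month, and the apple pool highest in the one was highest in the other. Both rose from 2 to 6 months, gene2740 by 0.58 (SE 0.17, adjusted p = 0.00637) and gene2741 by 0.56 (SE 0.16, adjusted p = 0.00365). Without the single-index libraries the rise of gene2740 was 0.48 and not called (adjusted p = 0.102).

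In the hawthorn libraries that the rule left out, the members did not stand uniformly above apple. With file-total scaling, replicate 2 exceeded the apple mean of 4 months in 32 members and replicate 4 in 25, against 18.5% and 25.6% of features with a mean CPM of at least 2. With TMM scaling the counts were 67 and 45, against 46.6% and 45.0%. Replicates 1, 3 and 5, which the rule used, exceeded it in 87, 72 and 70 members with file totals (47.1%, 27.7% and 24.3% of features) and in 87, 84 and 90 with TMM scaling (46.7%, 43.6% and 44.9%). The share in replicate 4 was thus near the background on both scales.

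By the fit across all features, 96 members were higher in hawthorn in the mean of the 5 months, where 11.6% of all features were. At 2, 3, 4, 5 and 6 months 52, 0, 1, 36 and 21 members were called, against 4.6%, 0.0139%, 0.0349%, 6.94% and 0.927% of all features. At 3 months 31 members passed an unadjusted p of 0.05 (5.7% of all features), and 5 were called by DESeq2 (0.386%). The rule used these contrasts, so the counts support nothing. Lane was shared unevenly between hosts, and with the lane term 13 members were called in the mean of the months and 0, 0, 0, 2 and 1 at the single months, against 0.279% of all features in the mean of the months and 0.0209%, 0%, 0%, 0.188% and 0.119% at the single months. At an unadjusted p under 0.05 there were 47, 15, 12, 31 and 63 members, against 6.21%, 2.25%, 1.91%, 7.61% and 7.49% of all features. Fitted differences with that term were above 0 in 100 members in the mean of the months, and in 100, 93, 92, 86 and 99 at the single months. Of the months, only 6 had both hosts in a lane (lane 7, 4 apple and 3 hawthorn libraries), and there 97 of 98 members tested were higher in hawthorn (49.9% of all features). Of the members, 0 were called there (0% of all features) and 47 had an unadjusted p under 0.05 (4.54%). Leaving out apple replicate 4 or 5 or hawthorn replicate 1 or 4 of 2 months gave 27, 30, 32 and 31 calls at that month. At 6 months the count was 9, 42, 0 and 0 without apple replicate 1, 2, 3 or 5 and 3, 9 and 1 without hawthorn replicate 1, 2 or 3. At 3 months 2 were called without hawthorn replicate 1, and the call at 4 months was lost in 12 such fits. The shares of all features called in the fits with a library left out are not given here. Whether the members or features in general gained and lost calls therefore cannot be told from these counts.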

How the data were processed

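RNA from 50 pools of 10 CNS was sequenced as stranded mRNA libraries (100 bp single-end reads, per the labels). Per the submitters' processing notes, the authors used STAR and RSEM. The labels name the R. zephyria genome as the target. The sources used here do not give tool versions, build or annotation. Expected counts per feature (estimated counts that need not be whole), TPM and transcript lengths were deposited, per the file headers. In a library 13.4% to 20.9% of features had a count more than 0.005 from a whole number. Lane (6 lanes) and index type were read from the names of the deposited files and are stated nowhere else in the sources used here. Only the lane number was used, so libraries of equal lane number need not share a sequencing run.

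Expected counts were rounded and fitted with edgeR 4.0.16 (quasi-likelihood, robust, TMM, filterByExpr with a minimum count of 10), with 1 mean per group over 48 libraries and Benjamini-Hochberg adjustment over 14342 features. A feature was called at an adjusted p under 0.05. DESeq2 1.42.0 and other designs were alternatives. CPM for the rule and for single libraries used file totals. On simulated data the fit for 6 against 2 months, run on 14096 features, recovered 68 of 100 changes of 1.5-fold and 90 of 100 of 2-fold, with 9 false calls. Only those features, all with a mean CPM of at least 2, were changed, and no host, lane or index effect was simulated. In the real data 19.8% of features were called higher and 18.9% lower, so these rates need not carry over. Intervals from counts of 0 cover counting error only.

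The members, tests and lists were chosen with earlier results of these data known. Named features were the 2 with the largest minimum d, those at the edge of the rule, the 2 highest in TPM, the 2 largest rises and falls among members called, those with the 2 smallest and 2 largest spreads between pools, and the 2 with most months without overlap. A hawthorn library of 6 months whose title has a letter after its number was taken as replicate 3. Gene names and sequences were not used here.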

Additional observations from a re-analysis of the deposited data

Results flagged for a closer look

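For the 19 named features and for the mean level of the members, the 5 libraries of each of 9 groups were examined for a highest or lowest library that lay apart from the others (a gap over 0.71 of the range of the group, Dixon's test). This held in 19 of 180 sets of 5 libraries, all 19 of them in single features, and chance gives about 1 in 20. In gene9585, apple replicate 1 of 6 months held 139 CPM against 0 to 32.3 CPM in the others, and hawthorn replicate 2 of 6 months held 186 CPM against 0 to 0.731. In gene3692, apple replicate 1 of 5 months held 7.58 CPM (others 0 to 2.07) and apple replicate 4 of 6 months 9.38 (0.501 to 1.85). In gene17606, hawthorn replicate 5 of 5 months held 6.58 CPM (0.841 to 1.32).

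In gene23990, apple replicate 3 of 3 months held 1.70 CPM (others 0.942 to 1.03), apple replicate 1 of 6 months 4.92 (2.29 to 2.95) and hawthorn replicate 5 of 5 months 1.70 (3.53 to 4.14). In gene24639, apple replicate 1 of 3 months held 4.80 CPM (2.53 to 2.95) and hawthorn replicate 4 of 2 months 7.11 (3.56 to 4.38). In gene27440, that same hawthorn library held 205 CPM (107 to 134). In gene600, apple replicate 3 of 2 months held 16.7 CPM (10.9 to 12.2), and in gene2741, hawthorn replicate 2 of 2 months held 9.68 CPM (7.40 to 7.97).

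In gene16056, apple replicate 4 of 2 months held 204 CPM (others 255 to 274) and hawthorn replicate 1 of 3 months 209 (293 to 315). In gene4121, apple replicate 2 of 6 months held 608 CPM (340 to 403) and hawthorn replicate 5 of 3 months 477 (368 to 396). In gene4012, apple replicate 4 of 4 months held 3.91 CPM (5.40 to 5.93). In gene7239, just outside the set, apple replicate 4 of 5 months held 2.96 CPM (7.16 to 8.47).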

How the results depend on the processing

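The number of members that rose from 2 to 6 months, averaged over hosts, stayed between 48 and 58 in 9 alternatives (13.6% to 21.8% of all features). It stayed between 50 and 57 when any 1 library was left out. Any change over months was called for 50 to 64 members in the alternatives (26.9% to 44.9% of all features) and for 59 to 66 with a library left out. The number that fell (7) was 3 with all 50 libraries, 1 with the lane term, 3 without the single-index libraries and 5 to 9 with a library left out. In apple, 18 rose with the lane term (3.1% of all features). With all 50 libraries, the lane term and no single-index libraries 1, 0 and 0 fell (6.24%, 1.37% and 4.11%). With a library left out, 38 to 48 rose and 1 to 3 fell, with 1 without replicate 3 or 5 of 2 months or replicate 1 or 5 of 6 months. In hawthorn, 22 rose without the single-index libraries (8.42% of all features) and 15 within lane 7 (3.28%). Lane 7 was chosen after seeing the data, and index type changed with month there. The number that fell was 3 with all 50 (8.73%), 0 without single-index libraries (5.75%) and 0 within lane 7 (2.71%). With a library left out, 30 to 38 rose and 3 to 6 fell, with 3 without replicate 4 of 6 months. Interaction calls (0) were 1 with the slope term (2.31% of all features), 1 with the replicate block (3.09%), 2 by DESeq2 (11.8%) and 0 to 2 with a library left out.

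Among contrasts that the rule used, 13 members were called in the mean of months with the lane term (0.279% of all features, and 93 to 97 members with a library left out). At 2 months 21 were called with all 50 libraries (1.46% of all features) and 0 with the lane term (0.0209%), and 27 to 57 with a library left out. At 3 months 4 were called with the slope term (0.39%) and 5 by DESeq2 (0.386%), and 0 to 2 with a library left out. At 4 months 14 were called with all 50 libraries, where 6.08% of all features were, against 0.0349% in the main fit. The count was 0 without a filter, with the lane term, slope term or replicate block, without single-index libraries, or with the compared groups alone (0 to 1 left out). In those alternatives 0% to 0.0209% of all features were called. At 5 months 22, 2, 16 and 20 were called with all 50, the lane term, the slope term and the compared groups alone (24 to 39 left out). The shares of all features were 3.55%, 0.188%, 3.03% and 3.96%. At 6 months 3, 9 and 1 were called with all 50, no filter and the lane term (0.144%, 0.337% and 0.119% of all features). The count was 0 without single-index libraries, with the compared groups alone or within lane 7 (0% each), and 39 by DESeq2 (3.26%). With a library left out it was 0 to 42. For the fits with a library left out in this section, shares over all features are not given, so nothing is read from those counts about the members alone. The causes were not tested.

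The main fit did not treat libraries of the same replicate number as pairs. Over 207 pairs of libraries with the same number the median correlation of deviations from group means was 0.0141, and 64 exceeded 0.1. Over 828 pairs with other numbers the median was -0.00621, and 198 exceeded 0.1. The difference was not tested. With the replicate block 55 members rose and 6 fell, against 19.8% and 18.8% of all features. Of the 100 members the rule kept 53 with all 50 libraries, 50 with group medians, 75 with TMM scaling and 52 to 72 with a replicate number left out. At a minimum of 5 CPM it kept 64. These are the members with a mean of at least 5 CPM, so that count was settled in advance. Held-out hawthorn replicates 2 and 4 went from 32 and 25 members above apple to 67 and 45 with TMM scaling. Signs turned without a call for gene28641 (0.11) and gene16224 (0.0073) with the slope term, and for gene16056 without single-index libraries (-0.0208, and -0.0228 to 0.0698 with a library left out).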
